A study of Mus musculus with 6 samples.

Results

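The genes described here are the protein subunits of the mitochondrial respiratory chain and of ATP synthase, from both genomes that encode them. Members were chosen by symbol among protein-coding genes: the mt-Nd, mt-Co, mt-Atp and mt-Cytb genes of mitochondrial DNA, and the nuclear genes of the Ndufa, Ndufb, Ndufc, Ndufs, Ndufv, Sdh, Uqcr, Cox4 to Cox8 and Atp5 families. This gave 98 members among the 54532 genes in the files, 13 encoded in mitochondrial DNA and 85 in the nucleus. The rule reads symbols and biotype, not measured values, although earlier results of these data were known when it was proposed. All 13 mitochondrial members and 83 of the nuclear members passed the filter on low values, a mean of at least 0.5 FPKM in either group. The exceptions, Cox8c and an additional identifier annotated as Atp5o, were at 0 in all 6 libraries.

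C57BL/6 mice gave 1 RNA sequencing library each, made from cervical spinal cord. In the imiquimod group, 50 mg of cream with 5% imiquimod, an activator of Toll-like receptor signalling that causes a psoriasis-like dermatitis, was put daily on the shaved nape for 2 days (3 mice). In the vehicle group the same amount of vehicle cream was applied in the same way (3 mice). The cream was applied to skin, whereas the RNA came from spinal cord, which was frozen on dry ice and extracted with TRIzol. The labels give no age.

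The respiratory chain passes electrons from NADH and succinate through complexes I to IV to oxygen, pumps protons across the inner mitochondrial membrane, and so drives ATP synthase, complex V. Complexes I, III, IV and V are built from subunits of both genomes, while complex II is wholly nuclear. Mitochondrial DNA is copied into long transcripts from both strands, which are cut into mRNAs, rRNAs and tRNAs, and nerve tissue, with its constant ion pumping, depends heavily on this pathway.

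Values are FPKM, which divides a gene's fragments by its exon length and by a scaling total of its library, so levels can be compared between genes. Here that total followed a size factor, the median over genes of ratios between libraries, and not the sum of recovered fragments. Changes are differences of log2(FPKM + 0.1), imiquimod minus vehicle, with their standard error (SE), and a change was called at an adjusted p under 0.05 from limma, adjusted over all 16513 genes that passed the filter. Across these genes 8.74% were called higher and 5.34% lower, and the median log2 change was -0.01. The fragments recovered from the values numbered 18174420 to 20672895 per vehicle library and 21242434 to 23200999 per imiquimod library. Imiquimod library 1 stood apart by gene length: its other protein-coding genes with exons under 1 kb lay at a median of 0.25 above the vehicle mean on the log2 scale and those of 8 kb or more at -0.22, against -0.04 to 0.01 in the other 2 imiquimod libraries. Imiquimod library 3 stood apart at Gapdh, a glycolytic enzyme gene with many processed pseudogenes, listed at 26.4 FPKM there and at 1.56 to 2.15 FPKM in the other 5 libraries. In whole tissue, fewer cells of a type and less RNA per cell cannot be told apart.

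Mitochondrially encoded mRNAs were lower in the imiquimod group. Of the 13, 5 were called lower, namely mt-Nd5, mt-Nd4, mt-Nd2, mt-Nd6 and mt-Cytb, against a background of 5.34%. None was called higher by limma, and none had an unadjusted p under 0.05 in that direction. With voom on recovered fragments 9 were called lower and none higher, where 6.56% and 9.11% of all genes were. All 13 had a log2 change below 0, with a median of -0.80. The summed share of the 13 mRNAs was 4.44%, 4.13% and 4.67% of recovered fragments in vehicle libraries 1, 2 and 3, and 2.99%, 3.04% and 2.53% in imiquimod libraries 1, 2 and 3. The lowest vehicle share lay above the highest imiquimod share, and the means were 4.41% ± 0.271 and 2.86% ± 0.282 (SD, n = 3 each). In 10 of the 13 genes, all imiquimod libraries lay below all vehicle libraries, an arrangement found in 18.0% of all genes tested. How many were called rests on the vehicle libraries: without vehicle replicate 1, 2 or 3 only mt-Nd5 passed (background 1.13%, 1.52% and 1.52% lower). Without imiquimod replicate 1 it was 3 of 13 (background 3.79%), and without imiquimod replicate 3 it was 4 of 13 (background 2.58%). Over alternatives with all libraries the limma count ran from 0 without the filter on low values (7 with an unadjusted p under 0.05) to 9.

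**Figure D1:**
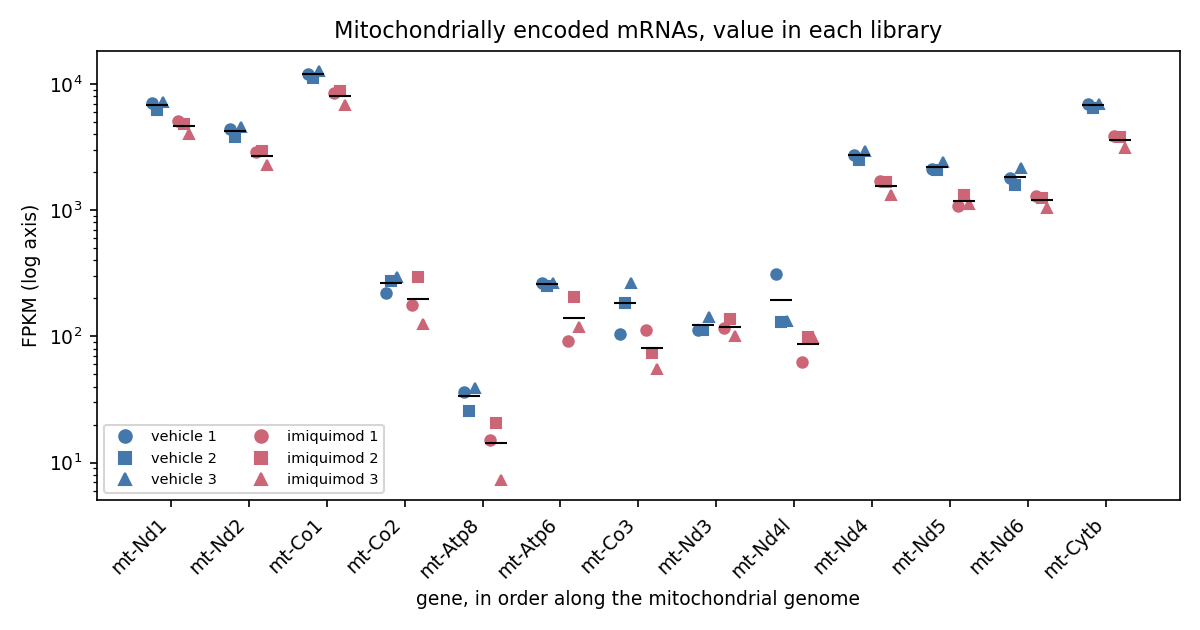
FPKM (log axis) of each mitochondrially encoded mRNA in the 6 libraries, with genes in their order along the mitochondrial genome; each symbol is 1 library and each short line a group mean. The 7 genes outside the stretch from mt-Co2 to mt-Nd4l had means of 1518 to 9978 FPKM over all libraries and did not overlap between groups, while the 6 within it had means of 23.9 to 231.

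Among the complex I subunits of mitochondrial DNA, all of them parts of the membrane arm, 4 of 7 were called lower. The mRNA of mt-Nd5, which encodes a proton-pumping subunit at the tip of that arm (ENSMUSG00000064367, chrM:11742-13565 on GRCm38, plus strand), stood at 2131, 2067 and 2398 FPKM in vehicle libraries 1, 2 and 3 and at 1088, 1328 and 1117 FPKM in imiquimod libraries 1, 2 and 3. Libraries are given in that order from here on. The groups did not overlap, and the log2 change was -0.90 ± 0.13 (limma adjusted p = 0.00693). This was the only mitochondrial member called with each library left out in turn (adjusted p 0.00949 to 0.0390).

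The mRNA of mt-Nd4, another pumping subunit (ENSMUSG00000064363, chrM:10167-11544), measured 2744, 2492 and 2923 FPKM with vehicle and 1709, 1665 and 1319 FPKM with imiquimod. Every imiquimod library was below every vehicle library, with a log2 change of -0.80 ± 0.15 (limma adjusted p = 0.0156). The call was lost without vehicle replicate 1, 2 or 3 (adjusted p = 0.0766, 0.0521 and 0.0715). For mt-Nd2, the remaining large pumping subunit of this kind (ENSMUSG00000064345, chrM:3914-4951), the values were 4380.0, 3814 and 4587 FPKM against 2913, 2921 and 2296 FPKM. The groups were again separate, with a log2 change of -0.66 ± 0.16 (limma adjusted p = 0.0391). That call held without imiquimod replicate 3 (0.0399) and was lost without any other library (0.0519 to 0.154).

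The only protein-coding gene on the opposite strand of the molecule, mt-Nd6 (ENSMUSG00000064368, chrM:13552-14070, minus strand), measured 1784, 1574 and 2159 FPKM with vehicle and 1294, 1249 and 1047 FPKM with imiquimod. The groups did not overlap and the log2 change was -0.61 ± 0.15 (limma adjusted p = 0.0436), but no fit with a library left out kept the call (0.0623 to 0.139). It shares 14 bases with mt-Nd5 on the other strand, and the strand setting of the counting is not given in the sources used here, so reads of mt-Nd6 and of RNA from the opposite strand cannot be told apart. The mRNA of mt-Nd1, which encodes a subunit at the quinone-binding site (chrM:2751-3707), lay at 7023, 6234 and 7167 FPKM against 5045, 4847 and 3982 FPKM. These groups were separate too, yet the log2 change of -0.56 ± 0.17 did not pass (limma adjusted p = 0.0695), though it was called lower in 5 of 11 alternative fits with all libraries, voom among them (adjusted p = 0.0101).

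The single complex III subunit of mitochondrial DNA is cytochrome b, which carries both quinone sites of the complex. Its mRNA, mt-Cytb (ENSMUSG00000064370, chrM:14145-15288), measured 6909, 6422 and 6977 FPKM with vehicle and 3904, 3809 and 3112 FPKM with imiquimod. No library crossed between the groups, and the log2 change was -0.91 ± 0.16 (limma adjusted p = 0.0134). The call was lost without vehicle replicate 1, 2 or 3 (adjusted p = 0.0759, 0.0622 and 0.0668). Quantile normalization, which gives all libraries the same distribution, brought the log2 change to -0.26 for mt-Cytb and -0.21 for mt-Nd2, and neither passed then (limma adjusted p = 0.224 and 0.192). The same setting gave -0.065 for mt-Nd1 (adjusted p = 0.772), -0.30 for mt-Co1 (0.167) and -0.45 for mt-Nd4, which still passed (0.00590).

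None of the 3 complex IV subunits of mitochondrial DNA was called by limma, although 2 had an unadjusted p under 0.05 (30.2% of all genes did, in either direction) and mt-Co1 was called by voom. The most abundant mRNA of all members was mt-Co1, the catalytic subunit where oxygen is reduced (chrM:5328-6872), at 11899.6, 11169 and 12630.5 FPKM with vehicle and 8529.7, 8767 and 6874 FPKM with imiquimod. The groups were separate and the log2 change was -0.57 ± 0.19 (limma adjusted p = 0.0966). The mRNA of mt-Co2, which receives electrons from cytochrome c, overlapped between groups at 221, 272 and 297 FPKM against 176, 293 and 126 FPKM (log2 change -0.49 ± 0.29, limma adjusted p = 0.306). Single libraries moved this value, to -0.81 without imiquimod replicate 2, when it passed (adjusted p = 0.0336), and to -0.20 without imiquimod replicate 3 (adjusted p = 0.609). The mRNA of mt-Co3, a structural core subunit, ranged from 104 to 267 FPKM with vehicle and from 55.4 to 113 FPKM with imiquimod, with a log2 change of -1.15 ± 0.38 (limma adjusted p = 0.0909).

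Neither complex V subunit of mitochondrial DNA was called by limma, although both had an unadjusted p under 0.05 and both were called by voom. The mRNA of mt-Atp6, part of the proton channel, measured 264, 252 and 265 FPKM with vehicle and 92.6, 204 and 119 FPKM with imiquimod. The vehicle values were tightly grouped and all higher, and the log2 change of -0.99 ± 0.26 fell just outside the threshold (limma adjusted p = 0.05005). The mRNA of mt-Atp8, a small stalk subunit whose reading frame overlaps that of mt-Atp6 by 43 bases, was the lowest of the 13 at 36.0, 25.7 and 38.8 FPKM against 15.0, 20.4 and 7.31 FPKM (log2 change -1.33 ± 0.36, limma adjusted p = 0.0534). It rested on 35 to 155 fragments per library. Without imiquimod replicate 2 both passed (adjusted p = 0.00300 for mt-Atp6 and 0.0218 for mt-Atp8).

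The remaining mitochondrial members were the small complex I subunits mt-Nd3 and mt-Nd4l. The mRNA of mt-Nd3 was the only one near 0 change, at 112, 112 and 144 FPKM against 116, 138 and 101 FPKM (log2 change -0.05 ± 0.14, limma adjusted p = 0.839). The groups overlapped, and the sign turned without vehicle replicate 3 (0.068), without imiquimod replicate 3 (0.056) and with length and GC trends removed (0.15). The mRNA of mt-Nd4l stood at 314 FPKM in vehicle library 1 and at 131 and 133 FPKM in the other vehicle libraries, with 62.7, 99.7 and 96.3 FPKM after imiquimod (log2 change -1.06 ± 0.36, limma adjusted p = 0.0981). Without vehicle replicate 1 that change was -0.64 (adjusted p = 0.147).

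The 13 mRNAs fell into separate abundance classes by position. The 6 neighbouring genes from mt-Co2 to mt-Nd4l, a set chosen after its values were seen, had means of 23.9 to 231 FPKM and none was called by limma (4 had an unadjusted p under 0.05 and 2 were called by voom). The other 7 had means of 1518 to 9978 FPKM, and 5 of them were called. The low stretch coincides with a block of annotated pseudogenes in nuclear DNA at chr1:24611535-24616197 on GRCm38 (minus strand), which holds 7 unprocessed pseudogenes. There, Gm28661, Gm10925, Gm28437 and Gm10222 match mt-Co2, mt-Atp6, mt-Co3 and mt-Nd4l at 100% identity over 99.6%, 99.6%, 99.9% and 99.0% of those genes. Near-identical sequence also covers 63.6% of mt-Nd4 and 31.3% of mt-Co1, and none of mt-Nd1, mt-Nd2, mt-Nd5, mt-Nd6, mt-Cytb or mt-Atp8 among annotated nuclear transcripts. For mt-Atp8 this leaves a copy in the block unsettled, because the search covered annotated transcripts only. Its neighbours mt-Atp6 and mt-Co2 have their copies 233 bases apart there, with none of the 7 pseudogenes in between.

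How reads matching both genomes were counted is not given in the sources used here, and its part in these values was not tested. The summed FPKM assigned to the 7 pseudogenes was 537, 457 and 626 with vehicle and 337, 359 and 228 with imiquimod, so the groups did not overlap there either. The sequences below show why a short read can or cannot be placed. The first pair is the start of mt-Nd3 (chrM:9459-9548, plus strand) and of its chromosome 1 copy Gm28438 (chr1:24613030-24613119, minus strand), which differ at 1 of 90 bases. The second pair is the start of mt-Cytb (chrM:14146-14235, plus strand) and of its closest annotated copy Gm11410 (chr4:80003990-80004079, plus strand), which differ at 5 of 90 bases. All are from the GENCODE M21 transcripts on GRCm38, and capitals mark the bases that differ within a pair.
mt-Nd3: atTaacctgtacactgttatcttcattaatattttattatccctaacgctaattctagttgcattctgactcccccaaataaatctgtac
Gm28438: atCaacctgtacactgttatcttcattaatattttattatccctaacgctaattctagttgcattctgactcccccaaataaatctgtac
mt-Cytb: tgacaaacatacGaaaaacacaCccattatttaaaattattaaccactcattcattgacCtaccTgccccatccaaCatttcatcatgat
Gm11410: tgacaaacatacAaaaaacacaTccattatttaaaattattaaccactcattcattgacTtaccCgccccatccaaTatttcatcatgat

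Outside that stretch, the size of the difference varied along the molecule. Relative to mt-Nd1, near the start of the heavy-strand transcript, the log2 ratio of mt-Cytb at its far end was -0.02, 0.04 and -0.04 in the vehicle libraries and -0.37, -0.35 and -0.36 in the imiquimod libraries. The groups were separate and each varied little, with means 0.35 apart. The ratio of mt-Nd4 to mt-Nd1 was also lower in every imiquimod library (difference -0.24), as was that of mt-Nd5 (-0.34) and that of mt-Nd2 (-0.09). The ratios of mt-Co1 (-0.01) and of mt-Nd6 (-0.05) to mt-Nd1 overlapped between groups. The ratio of mt-Nd6 to mt-Nd5, its neighbour on the other strand, was higher in every imiquimod library (0.29). With the strand setting not given, the ratios of mt-Nd6 cannot be read by position along the heavy-strand transcript. These ratios were formed after the values were seen and carry no test.

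The 2 ribosomal RNAs at the start of the molecule did not share the lower level. The 12S rRNA, mt-Rnr1, measured 2088, 1859 and 2135 FPKM with vehicle and 4254, 2760.2 and 2738 FPKM with imiquimod. Every imiquimod library was higher, but the log2 change of 0.65 ± 0.20 did not pass (limma adjusted p = 0.0735), and it passed in 6 of 11 alternative fits with all libraries (adjusted p 0.0135 to 0.357). The 16S rRNA, mt-Rnr2, overlapped between groups, with a log2 change of 0.09 ± 0.17 (limma adjusted p = 0.766), and passed in 1 of 11 alternative fits, with quantile normalization (adjusted p = 0.0289). The log2 ratio of mt-Rnr1 to mt-Nd1 was -1.75 in each vehicle library and -0.25, -0.81 and -0.54 in the imiquimod libraries. Its highest value was that of imiquimod library 1, where short genes stood high. Without that library the log2 change of mt-Rnr1 was 0.44 (limma adjusted p = 0.0620). The part of RNA selection before sequencing in the rRNA and mRNA values was not tested.

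**Figure D2:**
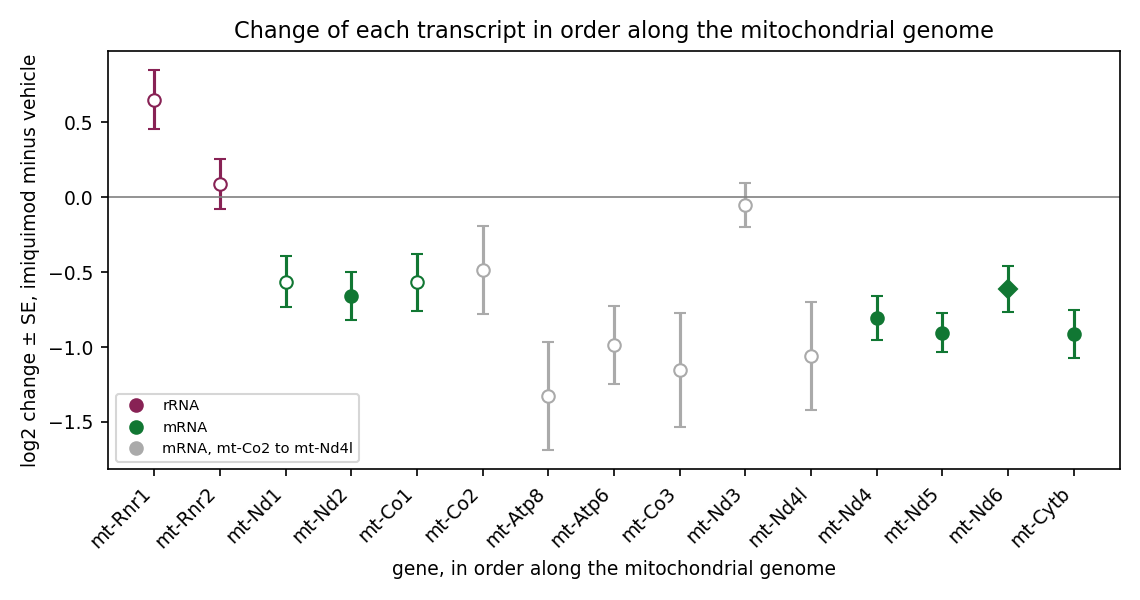
Log2 change (imiquimod minus vehicle, error bars SE) of the mitochondrial rRNAs and mRNAs in their order along the mitochondrial genome; filled symbols were called by limma, the diamond is mt-Nd6 on the minus strand, and grey symbols are the genes from mt-Co2 to mt-Nd4l. The rRNAs lie at 0.65 and 0.09 and all 13 mRNAs lie below 0, mt-Nd3 at -0.05.

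The nuclear-encoded subunits showed few calls. Of 83 tested, 1 was called higher (Cox6a2; background 8.74%) and 2 lower (Atp5s and Cox7a1; background 5.34%), while 80 did not pass. Their log2 changes had a median of -0.10, and 69 were below 0, where 8408 of all 16513 genes tested were. By complex, the medians were -0.09 for the 37 members of complex I, -0.03 for the 4 of complex II, -0.08 for the 8 of complex III, -0.13 for the 17 tested of complex IV and -0.11 for the 17 tested of complex V. In complexes I, II and III limma and voom called no nuclear member, with 1, 1 and 0 members at an unadjusted p under 0.05.

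**Figure D3:**
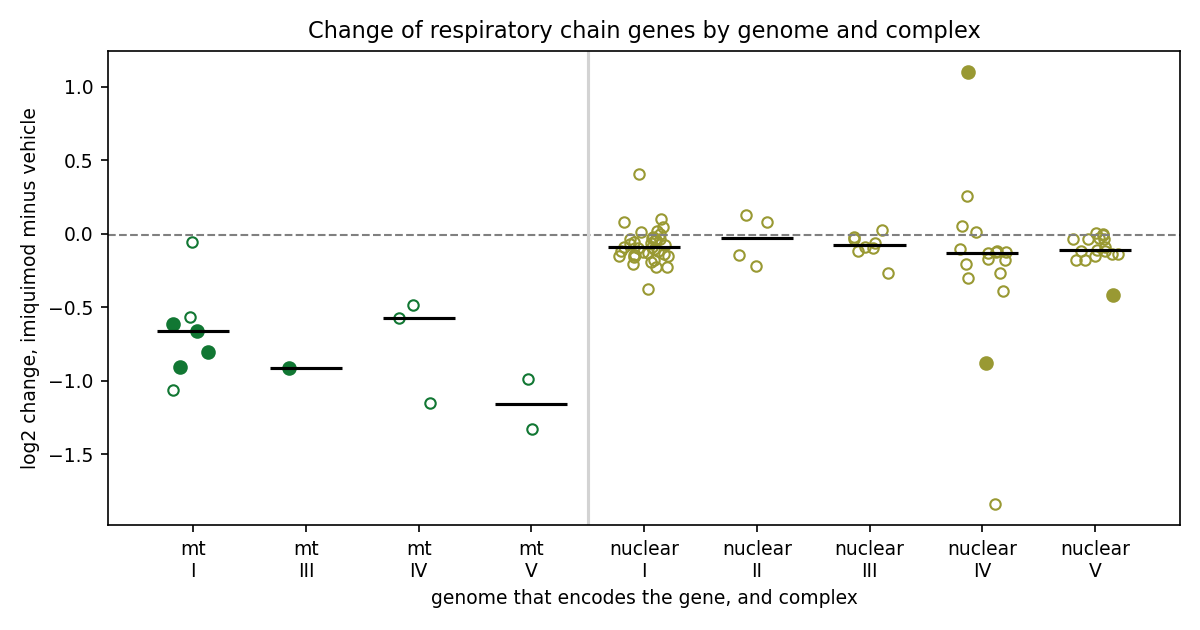
Log2 change (imiquimod minus vehicle) of every member tested, by the genome that encodes it and by complex; each circle is 1 gene, filled where limma called it, black lines are medians and the dashed line is the median of all genes tested. Mitochondrial medians lie at -0.66, -0.91, -0.57 and -1.16 for complexes I, III, IV and V, and the nuclear medians between -0.13 and -0.03.

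The most abundant nuclear member of each complex did not pass. In complex I this was Ndufa4, now regarded as a subunit of complex IV, with a log2 change of -0.23 ± 0.12 (limma adjusted p = 0.259). Sdha, the flavoprotein of complex II that oxidises succinate, measured 142, 145 and 141 FPKM against 135, 130.1 and 123 FPKM. Those groups did not overlap, yet its log2 change of -0.14 ± 0.06 did not pass (limma adjusted p = 0.181). Uqcr10, a small complex III subunit, had a log2 change of -0.03 ± 0.11, Cox6a1, the widely expressed form of a complex IV subunit, one of -0.13 ± 0.12, and Atp5b, the catalytic beta subunit of ATP synthase, one of -0.09 ± 0.08 (limma adjusted p 0.866, 0.506 and 0.515).

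The nuclear members differed more among the imiquimod libraries than between the groups. Their median distance from the vehicle mean on the log2 scale was 0.01, -0.04 and 0.02 in the vehicle libraries and 0.09, -0.10 and -0.27 in imiquimod libraries 1, 2 and 3. Imiquimod library 3 held the lowest value of 74 of the 83 genes, and imiquimod library 1 the highest of 46. Over all 16513 genes tested, the same held for 3405 and 4036. Without imiquimod replicate 3 the median log2 change was -0.02, with 46 of 83 below 0. Without imiquimod replicate 1, where short genes stood high, it was -0.17, with 77 below 0 and 5 called lower (background 3.79%). Many of these genes have processed pseudogenes, and the part of shared reads in their values was not tested. Nuclear members are short, with a median exon length of 1550 bases against 4453 in other protein-coding genes. Within each length class holding over 1 member, imiquimod library 3 still lay lowest among them, at -0.31 to -0.20, where other protein-coding genes of that library lay between 0.01 and 0.05.

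**Figure D4:**
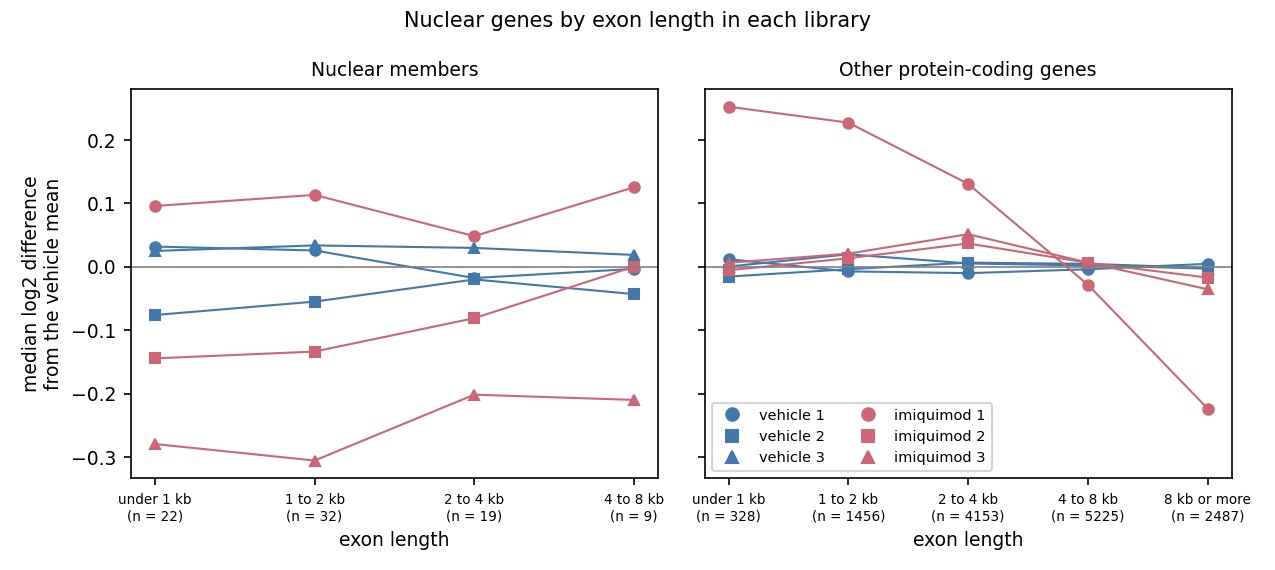
Median log2 difference from the vehicle mean in each library (1 line each) for nuclear members, left, and other protein-coding genes, right, by exon length class. Among members imiquimod library 3 lies lowest in every class drawn, at -0.31 to -0.20; among other genes imiquimod library 1 goes from 0.25 in the shortest class to -0.22 in the longest.

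The called nuclear members were mostly forms best known from heart and muscle, expressed here at low levels. Cox6a2, the heart and skeletal muscle form of a complex IV subunit (ENSMUSG00000030785, chr7:128205435-128206387), measured 1.75, 2.45 and 2.93 FPKM with vehicle and 4.07, 5.52 and 5.89 FPKM with imiquimod. Every imiquimod library was higher, with a log2 change of 1.10 ± 0.21 (limma adjusted p = 0.0192) from 21 to 94 fragments per library. The call was lost without vehicle replicate 2 (0.0590) or imiquimod replicate 3 (0.0644). Cox7a1, the heart and muscle form of a different complex IV subunit (ENSMUSG00000074218, chr7:30184144-30186078), went the other way, at 23.0, 16.2 and 14.6 FPKM against 10.1, 12.1 and 7.09 FPKM. The groups were separate and the log2 change was -0.88 ± 0.23 (limma adjusted p = 0.0491). Only without imiquimod replicate 2 was that call kept (0.0298, against 0.0788 to 0.141).

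Atp5s, a coupling factor that is not a structural part of ATP synthase (ENSMUSG00000054894, chr12:69724950-69744660), measured 9.70, 10.9 and 10.3 FPKM with vehicle and 7.85, 7.81 and 7.503 FPKM with imiquimod. The values within each group were close and the groups did not overlap (log2 change -0.41 ± 0.07, limma adjusted p = 0.0115). The call was lost without vehicle replicate 2 or 3 (0.0531 and 0.0527).

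Other members listed beforehand as tissue-restricted were low and not called. Cox8b, a muscle and brown fat form, measured 4.55, 2.72 and 3.83 FPKM against 1.62, 1.86 and 0.237 FPKM, all lower after imiquimod but with a wide error (log2 change -1.84 ± 0.65, limma adjusted p = 0.108), and its lowest value rested on 2 fragments. Log2 changes were 0.26 ± 0.17 for Cox4i2, a form associated with lung and low oxygen, -0.39 ± 0.17 for Cox6b2 and -0.30 ± 0.27 for Cox7b2, both testis forms, and -0.37 ± 0.17 for Ndufa4l2, a hypoxia-induced relative of Ndufa4. Skeletal muscle markers were near the floor: 3 of 7 passed the filter, none was called by limma or voom or had an unadjusted p under 0.05, and their summed level was 2.80 to 4.06 FPKM with vehicle and 2.81 to 3.63 FPKM with imiquimod. Myh4 was at 0 in all vehicle libraries. Of 5 fat markers only Cidea passed the filter, at -0.43 ± 0.10 (limma adjusted p = 0.0338, lost without any library other than vehicle replicate 3), and Ucp1 was at 0 in all imiquimod libraries. The part of these tissues in the Cox6a2, Cox7a1 and Cox8b values was not tested.

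Promoter windows were searched for motifs of factors known to activate nuclear respiratory genes. RefSeq windows on GRCm38.p6, from 250 bases before to 50 after the gene start, were found for 68 of the 84 member symbols, Cox6a2 not among them. The binding motif of nuclear respiratory factor 1, GCGCA, then any base, then GCGC, on either strand, matched in 17 of these 68 windows (25.0%) and in 7.10% of 17423 windows of other protein-coding genes. The motif CCGGAAGT of GABP, the other factor searched, matched in 5 (7.35%, against 5.68%). A match of one motif could overlap a match of the other. A match is a description and not a binding site, and no match says only that these letters are not in the window. Shown are Cox6a1, the most abundant nuclear member, with its 2 matches of the first motif in capitals (chr5:115348909-115349208, minus strand), and Cox7a1, which was called lower and has none (chr7:30183921-30184220, plus strand).
Cox6a1: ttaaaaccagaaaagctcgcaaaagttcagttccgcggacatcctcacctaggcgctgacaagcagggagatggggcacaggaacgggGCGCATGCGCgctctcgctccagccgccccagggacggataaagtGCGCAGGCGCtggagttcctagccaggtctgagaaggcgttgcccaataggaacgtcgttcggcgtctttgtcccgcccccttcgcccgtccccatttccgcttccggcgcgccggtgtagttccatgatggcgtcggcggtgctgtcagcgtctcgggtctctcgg
Cox7a1: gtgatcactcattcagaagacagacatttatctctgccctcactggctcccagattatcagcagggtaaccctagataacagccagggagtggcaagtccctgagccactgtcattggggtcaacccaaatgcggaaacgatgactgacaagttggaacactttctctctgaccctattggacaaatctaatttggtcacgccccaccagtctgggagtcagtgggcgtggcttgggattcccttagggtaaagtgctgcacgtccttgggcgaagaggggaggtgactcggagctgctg

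The contrast of the genomes was also formed as a ratio within each library. Summed mitochondrial FPKM divided by summed nuclear FPKM was 3.97, 3.82 and 4.19 with vehicle and 2.52, 2.95 and 2.62 with imiquimod. All imiquimod ratios lay below all vehicle ratios, and the mean log2 ratio went from 2.00 ± 0.0666 to 1.43 ± 0.119 (SD, n = 3 each), a difference of -0.57. Leaving out the 6 genes from mt-Co2 to mt-Nd4l gave -0.57 as well, and quantile normalization gave -0.15. The summed nuclear level overlapped between groups, at 9549, 9091 and 9542 FPKM against 9957, 8616 and 7728 FPKM. No test was made of a sum over members.

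The ratio was lower in every imiquimod library for each complex that draws on both genomes. The difference of mean log2 ratios was -0.57 for complex I, -0.82 for complex III, -0.43 for complex IV and -0.92 for complex V. Complex III, with mt-Cytb alone as its mitochondrial member, varied least, from 2.74 to 2.79 with vehicle and from 1.87 to 2.03 with imiquimod. Complex V varied most after imiquimod, at -4.23, -3.00 and -3.66, and rests on mt-Atp6 and mt-Atp8 from the low stretch.

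**Figure D5:**
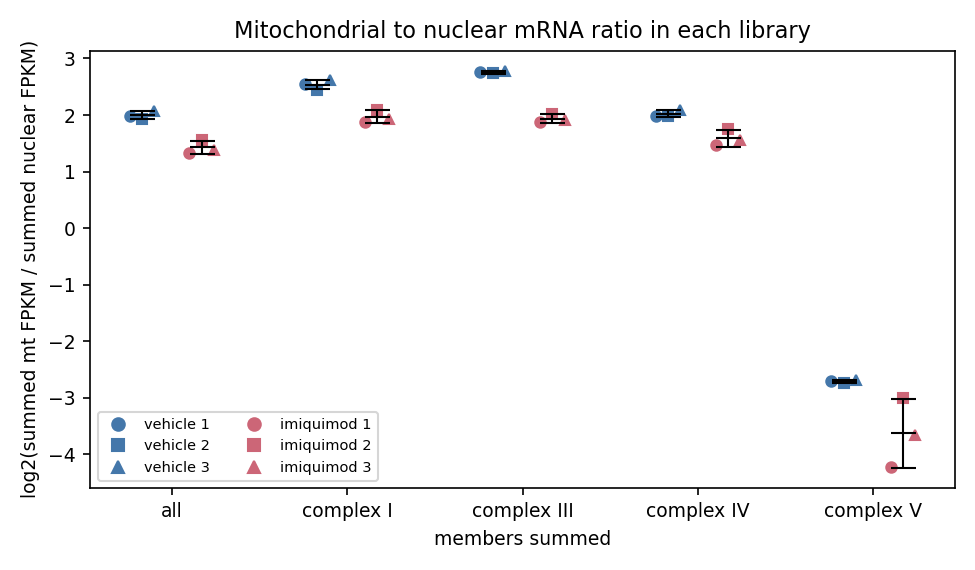
Log2 ratio of summed mitochondrial to summed nuclear FPKM in each library, for all members and for complexes I, III, IV and V; symbols are libraries, long ticks group means and error bars SD (n = 3). In each set all 3 imiquimod libraries lie below all 3 vehicle libraries, for all members at 1.33 to 1.56 against 1.93 to 2.07.

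Genes that make, assemble or supply the chain were mostly not called. As background for this and the following lists, limma called 8.74% of all genes higher and 5.34% lower, and voom 9.11% and 6.56%. Of 46 assembly factors tested, 2 were called higher and none lower (10 had an unadjusted p under 0.05 in either direction, and voom called 1 in each direction), with a median log2 change of -0.05. Cox18, which inserts a segment of the mt-Co2 protein into the membrane, was at 2.77, 3.01 and 3.38 FPKM against 6.41, 5.36 and 5.97 FPKM, a log2 change of 0.93 ± 0.11 (limma adjusted p = 0.00320) that passed with each library left out. Cox20, a chaperone of the same protein, had a log2 change of 0.71 ± 0.17 (limma adjusted p = 0.0370) and passed only without imiquimod replicate 2 when a library was left out (0.0138, against 0.0812 to 0.121).

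Among 19 genes of mitochondrial transcription and mRNA upkeep, 2 were called higher and none lower by limma or voom (2 with an unadjusted p under 0.05), with a median of 0.08. Slirp, which with Lrpprc stabilises mitochondrial mRNAs, measured 1.27, 1.02 and 1.30 FPKM against 2.09, 2.10 and 2.09 FPKM. Its groups were well apart, with a log2 change of 0.76 ± 0.13 (limma adjusted p = 0.0123) that passed with each library left out. Pnpt1, a mitochondrial RNA-degrading enzyme also known as an interferon-induced gene, had a log2 change of 0.60 ± 0.10 (limma adjusted p = 0.0119), lost without vehicle replicate 1 (0.0540) or 3 (0.0526).

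The other lists held fewer calls. None of 9 nuclear regulators of respiratory genes was called by limma or voom (2 with an unadjusted p under 0.05, median 0.05), and none of Ndufab1, Cyc1 and Cycs, subunits and the electron carrier outside the symbol rule (0 with an unadjusted p under 0.05, median -0.06). Of 17 citric acid cycle and pyruvate dehydrogenase genes none was called by either tool (5 with an unadjusted p under 0.05), and 16 were below 0, with a median of -0.14. In coenzyme Q synthesis 1 of 13 was called lower, Coq9, at -0.32 ± 0.06 (limma adjusted p = 0.0184), which was lost without imiquimod replicate 3 (0.0535) or vehicle replicate 2 or 3 (0.0800 and 0.0793). Of 17 general mitochondrial proteins 1 was called higher, the import receptor Tomm70a, at 0.27 ± 0.06 (limma adjusted p = 0.0279), which passed only without imiquimod replicate 1 (0.0481) or 2 (0.0449) when a library was left out. Their median was 0.01.

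Markers of several cell types also differed between the groups. The same background applies to the counts of every marker list, 8.74% higher and 5.34% lower by limma. Neuron markers summed to 1435 to 1529.9 FPKM with vehicle and 1033 to 1344 FPKM with imiquimod (2 of 8 called lower, Rbfox3 and Elavl3). Motor neuron markers summed to 81.6 to 87.4 FPKM and 40.8 to 70.4 FPKM (2 of 5 tested called lower, Chat and Prph). Oligodendrocyte markers summed to 7503 to 8026 FPKM and 4862 to 6331 FPKM (none of 6 called by limma, 2 with an unadjusted p under 0.05 and 2 called lower by voom). Endothelial markers were higher in sum, at 69.7 to 72.3 FPKM against 125 to 136 FPKM. Of these 5, 3 were called higher (Cldn5, Pecam1 and Cdh5) and 1 lower (Slco1a4). Their log2 changes were split, 3 above 0 and 2 below, from -0.90 to 1.27, and all 5 had an unadjusted p under 0.05. No marker of these 4 lists that was tested was at 0 in any library.

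Markers of blood-borne cells, microglia and Schwann cells spanned a wide range of levels. T and NK cell markers summed to 0.578 to 1.90 FPKM with vehicle and 8.60 to 18.1 FPKM with imiquimod (all 3 tested of 6 called higher, Nkg7, Ncr1 and Gzmb). The lowest of these 3, at a mean of 0.327 FPKM over all libraries, passed the filter through the imiquimod group alone. The count called among those tested therefore depends in part on the filter. Monocyte and neutrophil markers overlapped in sum, at 16.8 to 58.4 FPKM and 30.9 to 38.6 FPKM (2 of 4 tested called higher, Ly6c2 and Ccr2). The other 2 tested had log2 changes below 0, and the 4 ranged from -0.45 to 3.99. Microglia markers summed to 82.8 to 92.6 FPKM and 98.2 to 129 FPKM (1 of 5 called higher by limma, Tmem119). They were split, with 3 log2 changes above 0 and 2 below, from -0.75 to 1.14, and voom called 2 higher and 1 lower. Red blood cell markers overlapped at 125 to 490.1 FPKM and 44.6 to 155 FPKM, with none of 5 called by limma or voom, 4 at an unadjusted p under 0.05 and all 5 below 0. Schwann cell markers overlapped at 228 to 337 FPKM and 47.3 to 242 FPKM, with none of 4 called by either tool, 1 at an unadjusted p under 0.05 and a median log2 change of -1.19.

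In the remaining lists calls were few: 1 higher and 1 lower of 6 for astrocytes and of 6 for pericytes and smooth muscle, 1 lower of 4 for oligodendrocyte precursors and of 4 for ependymal cells, and none of 5 for meningeal fibroblasts by limma or voom (0 at an unadjusted p under 0.05). The part of these cell types in the mitochondrial mRNA values was not tested.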

How the data were processed

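The deposited files give 1 FPKM value per gene and library. The submitters' processing notes list HISAT2 2.0.5, featureCounts 1.5.0-p3, DESeq2 1.16.1 and mm10, without saying what each did. No source used here states the annotation, the strand setting or how multiply matching reads were counted. Symbols were found for 54409 and GENCODE M21 exon lengths for 54495 of 54532 genes. FPKM multiplied by exon length gave whole fragments (within 0.05) for 97.4% to 97.6% of values up to 1000 fragments.

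The main test was limma 3.58.1 in R 4.3.3 (trend option of its variance model) on log2(FPKM + 0.1), for genes at a mean of at least 0.5 FPKM in either group, with Benjamini-Hochberg adjustment over all genes and a threshold of 0.05. The pseudocount understates changes of low genes. The test was also run on simulated data with known changes. Alternatives were other pseudocounts, filters and scalings, removal of length and GC trends, voom on recovered fragments, a replicate block and leaving out each library. Nuclear copies were found with blastn 2.17.0 among annotated transcripts.

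Named genes were all mitochondrial members, the most abundant, called and tissue-restricted nuclear members of each complex, and up to 3 called genes per list. The members and lists were chosen with earlier results of these data known.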

Additional observations from a re-analysis of the deposited data

How the results depend on the processing

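Mitochondrial members called lower by limma numbered 5 in the main test, 3 with a pseudocount of 0.01, 8 with a mean of at least 1 FPKM, 9 with scaling to nuclear genes and 9 with voom. Without a filter on low values limma called 0 (7 with an unadjusted p under 0.05). With a library left out the count ranged from 1 to 6. Nuclear members called lower numbered 2, but 1 with a pseudocount of 0.01, 1 without a filter, 1 with scaling to a common sum, 6 with quantile normalization, 4 with scaling to nuclear genes and 4 with length and GC trends removed, and 0 to 5 with a library left out. Nuclear members called higher numbered 0 to 1 with a library left out. The ratio difference of -0.57 became -0.15 with quantile normalization and -0.44 with the trends removed, and ranged from -0.64 to -0.52 with a library left out. For mt-Nd3 the log2 change turned to 0.15 with the trends removed (also with the block), to 0.068 without vehicle replicate 3 and to 0.056 without imiquimod replicate 3, with a range from -0.17 to 0.068 with a library left out. The causes were not tested. The other 12 mitochondrial members stayed below 0 in every fit. Depth limits mt-Atp8 (35 to 155 fragments per library), Cox6a2 (21 to 94) and Cox8b (2 to 29).

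No pairing by replicate number was seen: deviations of same-numbered libraries correlated at 0.02, -0.10 and -0.03, and not every library correlated best with its own number. With 3 libraries per group, this check cannot show that the samples were unpaired. With a replicate block, 1 mitochondrial member (mt-Nd5) was called lower, 3 with the block and the trends removed together, and calls over all genes went from 2326 to 1330.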

Other observations

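Transfer RNA genes lie between the mRNA genes on both strands, and excision of those on the same transcript frees the mRNAs. Of 22 mitochondrial tRNA genes, 59 to 75 bases long, 18 passed the filter, 2 were called higher and none lower by limma or voom, with mt-Te alone lower at an unadjusted p under 0.05. Over all genes, limma called 8.74% higher and 5.34% lower, and voom 9.11% and 6.56%. The called genes, chosen after their values were seen, are neighbours on the minus strand. With the strand setting not given, their reads and those of RNA from the opposite strand cannot be told apart. On either side of them, mt-Ta and mt-Ty on the same strand did not pass (log2 change 0.45 and 0.20, limma adjusted p = 0.592 and 0.509). Beside mt-Ta but on the plus strand, mt-Tw had a log2 change of 0.74 ± 0.26. It overlapped between groups and did not pass (limma adjusted p = 0.113), and it passed in 2 of 11 alternative fits with all libraries. For asparagine, mt-Tn measured 301, 357 and 522 FPKM with vehicle and 675, 622 and 625 FPKM with imiquimod, a log2 change of 0.74 ± 0.19 (limma adjusted p = 0.0476). For cysteine, mt-Tc measured 418, 379.9 and 739 FPKM against 939, 1032 and 889 FPKM, a log2 change of 0.96 ± 0.24 (limma adjusted p = 0.0446). The groups did not overlap in either gene, and both calls held only without vehicle replicate 3 when a library was left out. For glutamate, mt-Te, which lies between mt-Nd6 and mt-Cytb, was lower in every imiquimod library but did not pass, with a log2 change of -0.63 ± 0.20 (limma adjusted p = 0.0779).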
